A study of Mus musculus with 6 samples.

Results

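The D-type cyclins, their kinases Cdk4 and Cdk6, the INK4 inhibitors p18 (Cdkn2c) and p19 (Cdkn2d) and the pocket proteins of the Rb family were examined in AE9a leukemia cells from 2 regions of the bone marrow (BM). The 10 genes were taken by name (Ccnd1, Ccnd2, Ccnd3, Cdk4, Cdk6, Cdkn2c, Cdkn2d, Rb1, Rbl1 and Rbl2), for their place in this pathway and not for a measured value, from a table of 54532 genes. Of these 10, 9 had enough reads to be tested among 13352 genes, and Ccnd1 did not. RNA-seq libraries numbered 6, with 3 from central BM (CBM) and 3 from endosteal BM (EBM) of C57BL/6 mice carrying AE9a leukemia. AE9a is a splice form of the AML1-ETO fusion oncogene, introduced by retrovirus, with GFP, into c-Kit+ stem and progenitor cells of mouse marrow. All libraries come from mice of the third transplant generation of this leukemia, the mice were young adult females when bought, their age at collection was not given, and the labels name a cell sort without its gate, so residual host blood cells may be present. CBM cells were flushed out of the bones. EBM cells were set free from the same femurs and tibias afterwards by warm collagenase, so the region and the digestion cannot be told apart. No library of normal marrow was used here, and the sources do not say whether a CBM and an EBM library with the same number came from 1 mouse.

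In a cycling cell, D-type cyclins are made in response to growth factors and bind Cdk4 or Cdk6. These kinases phosphorylate Rb and its relatives p107 (Rbl1) and p130 (Rbl2), which otherwise hold E2F transcription factors in check, and E2F then drives the genes of DNA replication. INK4 proteins bind Cdk4 and Cdk6 and keep D cyclins away from them. D cyclins dock on the pocket proteins through an LxCxE motif near their start. Hematopoietic cells are known to rely on Cdk6 and on the D2 and D3 cyclins, and p130 is the pocket protein best known from quiescent cells. AML1-ETO leukemias in particular are known to express CCND2.

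The docking motif is shown first, because all 3 cyclins carry it although they were expressed at very different levels. The first 36 coding bases of each cyclin are printed from GENCODE M21 transcripts (GRCm38), 5′ to 3′ on the gene's strand, with the 5 codons of the LxCxE motif in capitals. For Ccnd1 they lie in exon 1 at chr7:144939658-144939693 (minus strand), for Ccnd2 in exon 1 at chr6:127150738-127150773 (minus strand) and for Ccnd3 in exon 3 of its transcript at chr17:47593655-47593690 (plus strand). In Ccnd2 and Ccnd3 the motif begins at codon 3, and in Ccnd1 it begins at codon 5.
Ccnd1: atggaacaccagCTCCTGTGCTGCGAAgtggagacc
Ccnd2: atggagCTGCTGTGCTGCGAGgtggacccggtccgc
Ccnd3: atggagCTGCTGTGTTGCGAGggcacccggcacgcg

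The kinase promoters are shown because Cdk4 was the steadiest of the 9 tested genes across libraries and Cdk6 the most variable. Each covers 300 bases around the annotated start of transcription (RefSeq, GRCm38.p6), with the E-box CACGTG in capitals, a hexamer known to be bound by MYC and related factors that reads the same on both strands. The Cdk4 window lies at chr10:127063285-127063584 and the Cdk6 window at chr5:3343643-3343942, both on the plus strand. The Cdk4 window spans the gene start of the deposited table (127063534). The Cdk6 window lies inside the gene as placed there (start 3341485), so the annotations differ on the start of Cdk6. Cdk4 holds 4 copies and Cdk6 holds 1. Of 32851 promoter windows of this length in the table, 7.15% hold at least 1 copy and 8 windows (0.0244%) hold at least 4. The hexamers describe these windows only, and no factor binding was measured. Promoter entries were found for 7 of the 10 genes, and the E2F site sequences TTTGGCGC and TTTCCCGC, searched on both strands, were in none of their windows and in 1.56% of all windows. Other forms of the E2F site were not counted. The Rbl1 window holds the similar sequence TTTCGCGC, so the search does not show that these promoters lack E2F sites.
Cdk4: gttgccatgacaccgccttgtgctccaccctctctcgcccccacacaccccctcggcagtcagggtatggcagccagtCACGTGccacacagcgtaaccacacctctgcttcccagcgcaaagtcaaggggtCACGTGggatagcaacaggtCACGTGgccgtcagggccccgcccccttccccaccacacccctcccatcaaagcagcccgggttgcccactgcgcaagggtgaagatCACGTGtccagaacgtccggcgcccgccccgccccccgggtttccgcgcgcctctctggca
Cdk6: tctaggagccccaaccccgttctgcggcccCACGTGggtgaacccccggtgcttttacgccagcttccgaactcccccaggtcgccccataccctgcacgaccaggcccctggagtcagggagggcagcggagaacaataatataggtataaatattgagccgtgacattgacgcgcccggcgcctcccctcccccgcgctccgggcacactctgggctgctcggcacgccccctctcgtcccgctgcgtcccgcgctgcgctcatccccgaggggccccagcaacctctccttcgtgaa

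Counts on genes totalled between 16436526 and 19462964 per library, so 3 counts correspond to between 0.149 and 0.193 CPM (counts scaled to library size after TMM normalization). The leukemic progenitor gene Kit was at 196 to 239 CPM in every library, and the 4 genes of its list divided into 2 above and 2 below 0 in log2 fold change (EBM minus CBM). Marker lists of osteoblasts, stroma, macrophages and T cells had no gene with enough reads to test, and their summed levels ranged from 0 to 0.779 CPM (osteoblast), 0.228 to 0.790 (stroma), 0.578 to 1.53 (macrophage) and 0.0992 to 0.632 (T cell). Endothelial markers summed to between 0.835 and 2.16 CPM and B cell markers to between 0.347 and 1.05. Of the osteoclast list, Ctsk was at or under 0.221 CPM and Calcr and Dcstamp were at 0 counts, while Acp5, which hematopoietic cells also express, was at 258 to 565 CPM. Libraries did not group by region along the first principal component of the 13343 tested genes outside the pathway, which held 53% of the variance. On it CBM replicate 2 (-42.9) and EBM replicate 3 (-46.0) stood at one end, CBM replicate 3 was at -5.81, and EBM replicate 2 (19.8), EBM replicate 1 (36.4) and CBM replicate 1 (38.5) followed. The second component, with 19.7% of the variance, had scores of -31.5 to -3.57 in CBM and 14.8 to 22.2 in EBM. Because CBM replicate 2 and EBM replicate 3 stand apart from the rest, results were also computed without them.

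No gene of the pathway passed the test between the regions. In edgeR's quasi-likelihood test 0 of the 9 tested genes had an adjusted p under 0.05, where 0% of all 13352 genes did. At an unadjusted p under 0.05 there were again 0 of 9, against 7.91% of all genes (1056). With DESeq2, an adjusted p under 0.05 was reached by 0 of the 9 and by 1.39% of the genes that tool tested (175 of 12619). The CPM of the regions overlapped for all 9 genes, whereas 15.1% of all genes had regions that did not overlap. Of the 9, 4 had a positive and 5 a negative log2 fold change in EBM. Their median was -0.11, beside 0.00 over all genes. The smallest unadjusted p of the 9 was 0.196 (Cdkn2c), and adjusted p-values ran from 0.808 to 0.989 with edgeR. These p-values measure the spread between 3 libraries per region, and the labels do not say that each library came from a separate mouse. Without CBM replicate 2 and EBM replicate 3, 13 genes passed an adjusted p under 0.05 and the adjusted p of the 9 ran from 0.522 to 0.998.

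**Figure D1:**
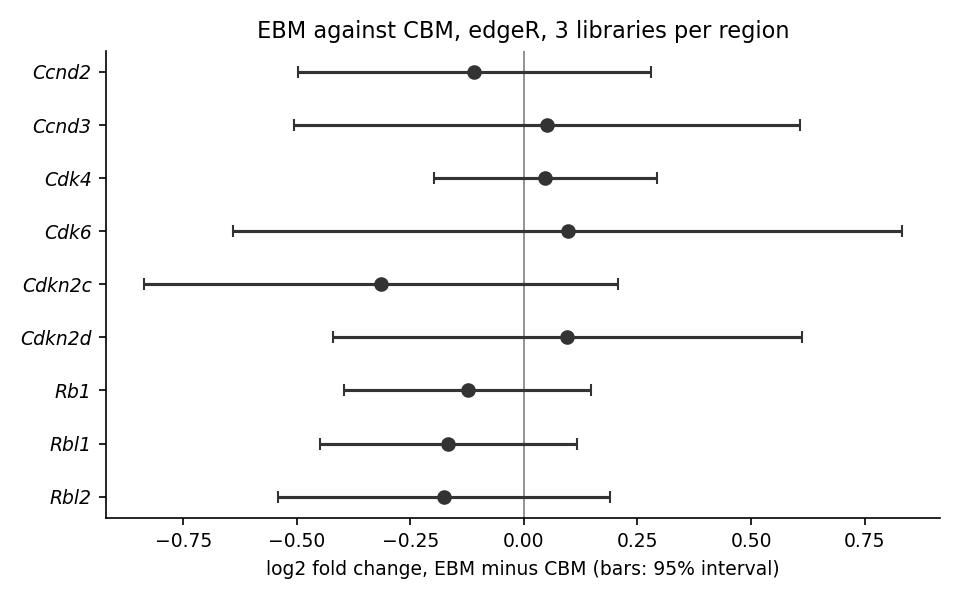
log2 fold changes of EBM against CBM for the 9 tested genes (points) with 95% intervals (bars) from edgeR's quasi-likelihood fit on 3 libraries per region. All 9 intervals include 0, and the intervals of Cdk4 (-0.20 to 0.29) and Cdk6 (-0.64 to 0.83) are the narrowest and the widest.

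To set genes side by side, CPM were divided by the gene length in kb given in the deposited table. The expressed transcript may have another length, so the order, ratios and shares of different genes hold for the deposited lengths only. On this scale Ccnd2 came first with a mean of 59.3 CPM per kb over the 6 libraries. Cdk4 followed with 49.0, and the ranges of both overlapped, at 47.4 to 68.8 and 43.6 to 53.7 per kb. Then came Cdkn2c (26.5), Ccnd3 (22.6), Cdkn2d (19.6), Cdk6 (19.4), Rb1 (18.8), Rbl1 (17.2) and Rbl2 (10.6). Every library of Ccnd2 and Cdk4 lay above every library of these 7 genes. From Cdkn2c down to Rbl1 each gene overlapped its neighbours in the order. Rbl2 was at 9.06 to 13.2 per kb, under the 15.02 to 20.2 of Rbl1. Ccnd1 was last with 0.114 per kb. In every library the 9 genes other than Ccnd1 had at least 346 counts.

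**Figure D2:**
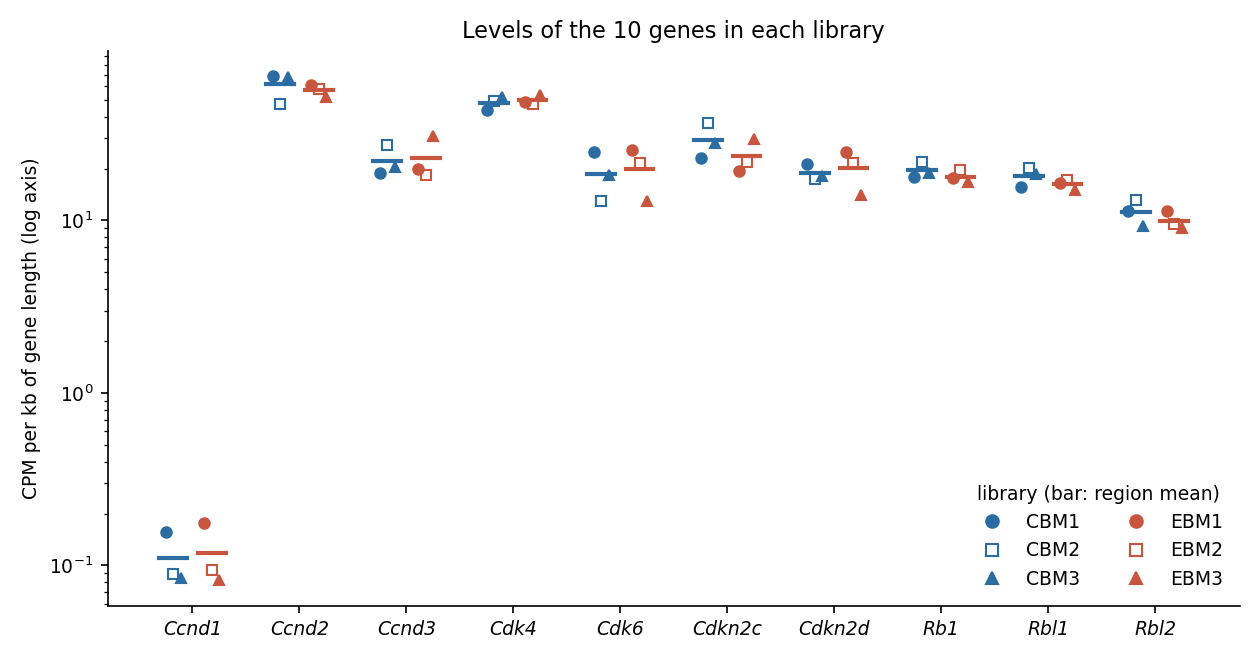
Level of each of the 10 genes in CPM per kb of gene length (log axis), with 1 symbol per library (CBM blue, EBM red, shape by replicate number) and a bar for the mean of each region. Ccnd2 and Cdk4 are at 43.6 per kb or more in every library, Ccnd1 is at 0.176 per kb or less, and for all genes the regions overlap.

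Among the D cyclins, Ccnd2 (cyclin D2; ENSMUSG00000000184, chr6:127125162-127152193, minus strand) carried most of the reads. Its level was 647.7, 445.7 and 643.1 CPM in CBM replicates 1 to 3 and 575.7, 545.0 and 489.9 CPM in EBM replicates 1 to 3. Both extremes were CBM libraries, and the EBM libraries lay between them. Per kb this was 61.5 ± 12.3 in CBM and 57.1 ± 4.62 in EBM (SD, n = 3 each), and the log2 fold change was -0.11 (SE 0.16, 95% interval -0.50 to 0.28, edgeR adjusted p = 0.956). Ccnd3 (cyclin D3; ENSMUSG00000034165, chr17:47505051-47599691, plus strand) was at 164.8, 241.6 and 178.8 CPM in CBM and at 174.6, 162.1 and 269.6 CPM in EBM. A single library of each region, CBM replicate 2 and EBM replicate 3, stood above the other 4, whose values ran from 162.1 to 178.8 CPM. The log2 fold change was 0.05 (SE 0.23, 95% interval -0.51 to 0.61, edgeR adjusted p = 0.989), and it moved to 0.24 without CBM replicate 2 and to -0.22 without EBM replicate 3. Ccnd3 shares 361 bases with Bysl, a gene on the other strand whose counts reached at most 30.6% of those of Ccnd3. The libraries keep strand, but the strand setting of the counting is not given in the sources used here, so reads in such shared stretches may be credited to either gene.

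Cyclin D1 was nearly silent. Ccnd1 (ENSMUSG00000070348, chr7:144929931-144939925, minus strand) had 13, 8 and 8 counts in CBM and 15, 8 and 6 counts in EBM, which makes 29 in each region. It lay at 0.386 to 0.828 CPM, above the level of 3 counts in every library, and was too low for the test. With no filter on low counts its log2 fold change was 0.11 (SE 0.53, edgeR adjusted p = 0.989 over 24780 genes), so a difference of the size of this error was not detectable at this depth. It shares 1771 bases with Oraov1 on the other strand, which had 460 to 567 counts, and reads of the 2 genes cannot be told apart there without the strand setting.

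The balance of D2 to D3 differed more between libraries of a region than between regions. Per length, Ccnd2 exceeded Ccnd3 by 3.67, 1.72 and 3.35 times in CBM replicates 1 to 3 and by 3.08, 3.14 and 1.70 times in EBM replicates 1 to 3. In each region 1 library had the low ratio and the other two had ratios of at least 3.08. Cyclin D3 made up 36.7% of the summed D cyclin level in CBM replicate 2 and 37.1% in EBM replicate 3, and 21.4% to 24.5% in the other 4 libraries. The sum of the D cyclins moved less, from 75.0 to 88.8 per kb, with means of 83.9 ± 7.70 in CBM and 80.2 ± 3.31 in EBM (SD, n = 3 each).

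Of the kinases, Cdk4 (ENSMUSG00000006728, chr10:127063534-127067920, plus strand), whose promoter with 4 E-boxes is printed above, was at 141.6, 159.4 and 168.5 CPM in CBM and at 157.9, 153.0 and 174.3 CPM in EBM. The highest library exceeded the lowest by 1.23 times, and the regions overlapped. Per kb the level was 48.2 ± 4.20 in CBM and 49.8 ± 3.44 in EBM (SD, n = 3 each), with a log2 fold change of 0.05 (SE 0.10, 95% interval -0.20 to 0.29, edgeR adjusted p = 0.980). Its interval was the narrowest of the 9. Tspan31 on the other strand shares 641 bases with Cdk4 and had counts of up to 25.2% of its own.

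Cdk6 (ENSMUSG00000040274, chr5:3341485-3531008, plus strand) was the least steady of the pathway. Its level was 346.8, 182.6 and 256.4 CPM in CBM and 357.1, 302.1 and 180.3 CPM in EBM. The values fell across nearly the same range in both regions, with CBM replicate 2 and EBM replicate 3 lowest and the libraries numbered 1 highest. The log2 fold change was 0.10 (SE 0.31, 95% interval -0.64 to 0.83, edgeR adjusted p = 0.985), and it was -0.11 without CBM replicate 2 and 0.32 without EBM replicate 3. Per kb the level was 18.7 ± 5.88 in CBM and 20 ± 6.47 in EBM (SD, n = 3 each). As a result Cdk4 exceeded Cdk6 per length by 1.76, 3.76 and 2.83 times in CBM and by 1.90, 2.18 and 4.16 times in EBM. Cdk6 made up between 19.4% (EBM replicate 3) and 36.3% (CBM replicate 1) of the kinase level, while the sum of both kinases stayed within 62.1 to 74.1 per kb.

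Both INK4 genes examined here were expressed and differed in opposite ways between libraries. Cdkn2c (p18; ENSMUSG00000028551, chr4:109660876-109667189, minus strand) was at 62.2, 99.0 and 75.6 CPM in CBM and at 52.3, 58.5 and 79.7 CPM in EBM. Its lowest values were those of EBM replicates 1 and 2, its highest those of CBM replicate 2 and EBM replicate 3, and the regions overlapped. The log2 fold change of -0.31 (SE 0.22, 95% interval -0.84 to 0.21, edgeR adjusted p = 0.808) was the largest in size of the 9, and it ran from -0.12 without CBM replicate 2 to -0.52 without EBM replicate 3. Cdkn2d (p19; ENSMUSG00000096472, chr9:21288410-21291407, minus strand) was at 33.6, 27.4 and 28.3 CPM in CBM and at 39.3, 33.9 and 22.2 CPM in EBM, a log2 fold change of 0.10 (SE 0.22, 95% interval -0.42 to 0.61, edgeR adjusted p = 0.980). EBM held both its highest and its lowest library. Per length, p18 exceeded p19 by 1.08, 2.12 and 1.56 times in CBM, and the ratio was 0.780, 1.01 and 2.10 in EBM. The sum of both inhibitors was 48.3 ± 5.23 per kb in CBM and 43.9 ± 0.580 in EBM (SD, n = 3 each). The EBM libraries (43.3 to 44.5) lay close together, and CBM replicate 2 (54.3) stood above all others. This holds for the sum of Cdkn2c and Cdkn2d only. Cdkn2a, an INK4 gene outside the sum, was at 20.7, 2.56 and 4.87 per kb in CBM. In EBM it was at 22.6, 10.0 and 2.58 per kb, so a sum over more INK4 genes would spread differently.

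Of the summed pocket protein level, the Rb1 share moved least for its size, from 38.8% to 42.3% over the libraries. The Rbl1 share ran from 34.9% (CBM replicate 1) to 39.9% (CBM replicate 3), and that of Rbl2 from 19.9% (CBM replicate 3) to 25.1% (CBM replicate 1). Rb1 (Rb; ENSMUSG00000022105, chr14:73183673-73325822, minus strand) was at 107.8, 131.9 and 113.4 CPM in CBM and at 106.2, 117.8 and 100 CPM in EBM. Rbl1 (p107; ENSMUSG00000027641, chr2:157145893-157204534, minus strand) was at 94.1, 121.2 and 111.9 CPM in CBM and at 98.8, 102.6 and 90.02 CPM in EBM. Rbl2 (p130; ENSMUSG00000031666, chr8:91070057-91123844, plus strand) was at 85.4, 99.9 and 70.5 CPM in CBM and at 85.4, 72.3 and 68.5 CPM in EBM. All 3 were highest in CBM replicate 2 and lowest in EBM replicate 3, libraries that lay on the same side of the rest for the tested cyclins, Cdk6 and both inhibitors. Their log2 fold changes were -0.12 (SE 0.11, 95% interval -0.40 to 0.15) for Rb1, -0.17 (SE 0.12, -0.45 to 0.12) for Rbl1 and -0.18 (SE 0.15, -0.54 to 0.19) for Rbl2, with edgeR adjusted p-values of 0.893, 0.810 and 0.876. Without those 2 libraries the fold changes were 0.02, -0.03 and 0.02. Rb1 took 39.9% ± 0.322 of the pocket protein level in CBM and 40.7% ± 1.75 in EBM, Rbl1 took 37.1% ± 2.51 and 36.7% ± 0.385, and Rbl2 took 23.0% ± 2.73 and 22.6% ± 2.12 (SD, n = 3 each). Rcbtb2 overlaps Rb1 and Aktip overlaps Rbl2 on the other strand, with counts of up to 22.7% and 14.9% of theirs.

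**Figure D3:**
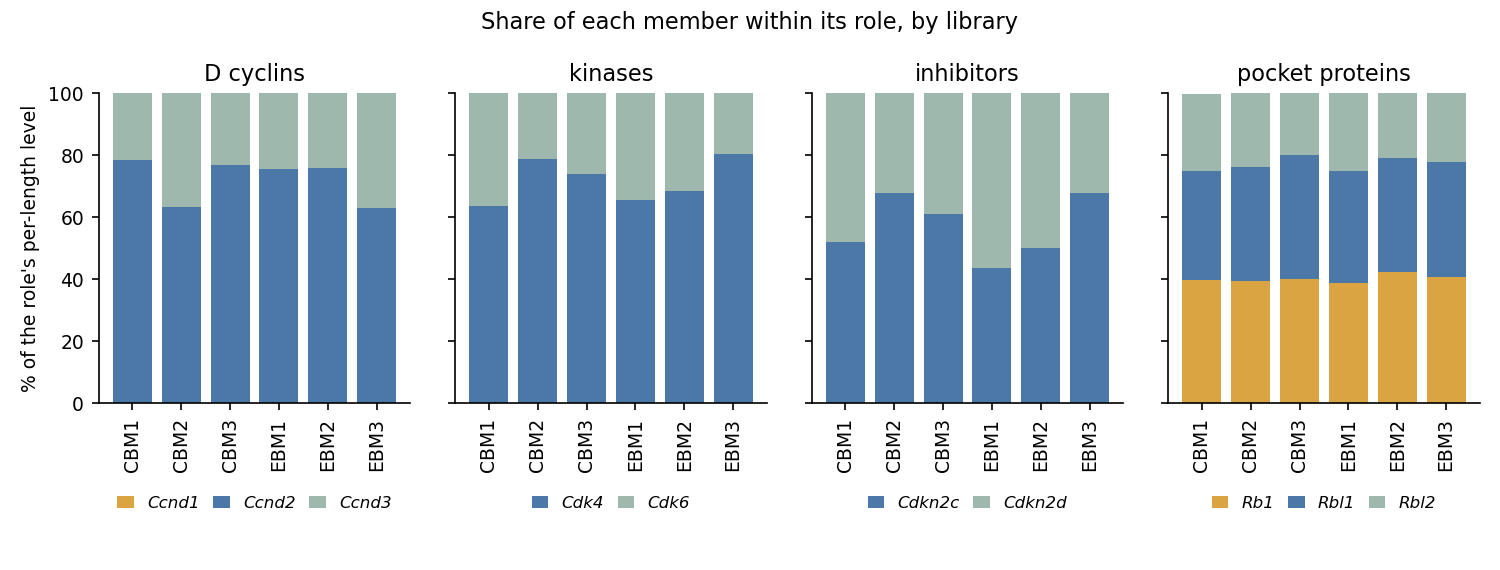
Share of each gene in the summed per-length level of its role (D cyclins, kinases, inhibitors, pocket proteins), in percent, with 1 bar per library. The inhibitors shown are Cdkn2c and Cdkn2d only. Ccnd3, Cdk4 and Cdkn2c take their largest shares in CBM replicate 2 and EBM replicate 3, the Rb1 share stays between 38.8% and 42.3%, and Ccnd1 (at most 0.22%) is too small to be seen.

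The variation within a region separated the genes by steadiness. The SD of log2 CPM within regions was 0.11 for Cdk4, 0.14 for Rb1, 0.15 for Rbl1, 0.21 for Rbl2, 0.23 for Ccnd2, 0.32 for Cdkn2d, 0.33 for Cdkn2c, 0.35 for Ccnd3 and 0.49 for Cdk6, beside a median of 0.22 over the 13352 genes. Among the roughly 668 genes of like abundance, 30.1% had a smaller SD than Cdk4, 46.1% than Rb1 and 51.7% than Rbl1. The share was 92.5% for Cdk6, 89.2% for Cdkn2c, 87.7% for Ccnd3, 81.4% for Cdkn2d, 72.5% for Ccnd2 and 70.6% for Rbl2. These 6 genes varied more than most genes counted as deeply, Cdk4 less than most, and Rb1 and Rbl1 lay near the middle.

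CBM replicate 2 and EBM replicate 3, at one end of the first component of all other genes, were also at one end for Ccnd2, Ccnd3, Cdk6, Cdkn2c and Cdkn2d. In Cdk6 the whole order from high to low was EBM replicate 1, CBM replicate 1, EBM replicate 2, CBM replicate 3, CBM replicate 2 and EBM replicate 3, which is the order of the first component except that the first pair is swapped, while in the other 4 genes the remaining libraries stood in other orders. In CBM replicate 2 and EBM replicate 3 Cdk6 was at 180.3 to 182.6 CPM and in the other 4 libraries at 256.4 to 357.1. Ccnd2 (445.7 to 489.9 against 545.0 to 647.7 CPM) and Cdkn2d (22.2 to 27.4 against 28.3 to 39.3 CPM) were low in the same libraries. Ccnd3 (241.6 to 269.6 against 162.1 to 178.8 CPM) and Cdkn2c (79.7 to 99.0 against 52.3 to 75.6 CPM) were high there. These 5 of 9 genes compare with 32.3% of all tested genes (4310) for which both libraries lay on the same side of the other 4. This pair was picked after the components were seen, so the ranges are a description with no test.

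**Figure D4:**
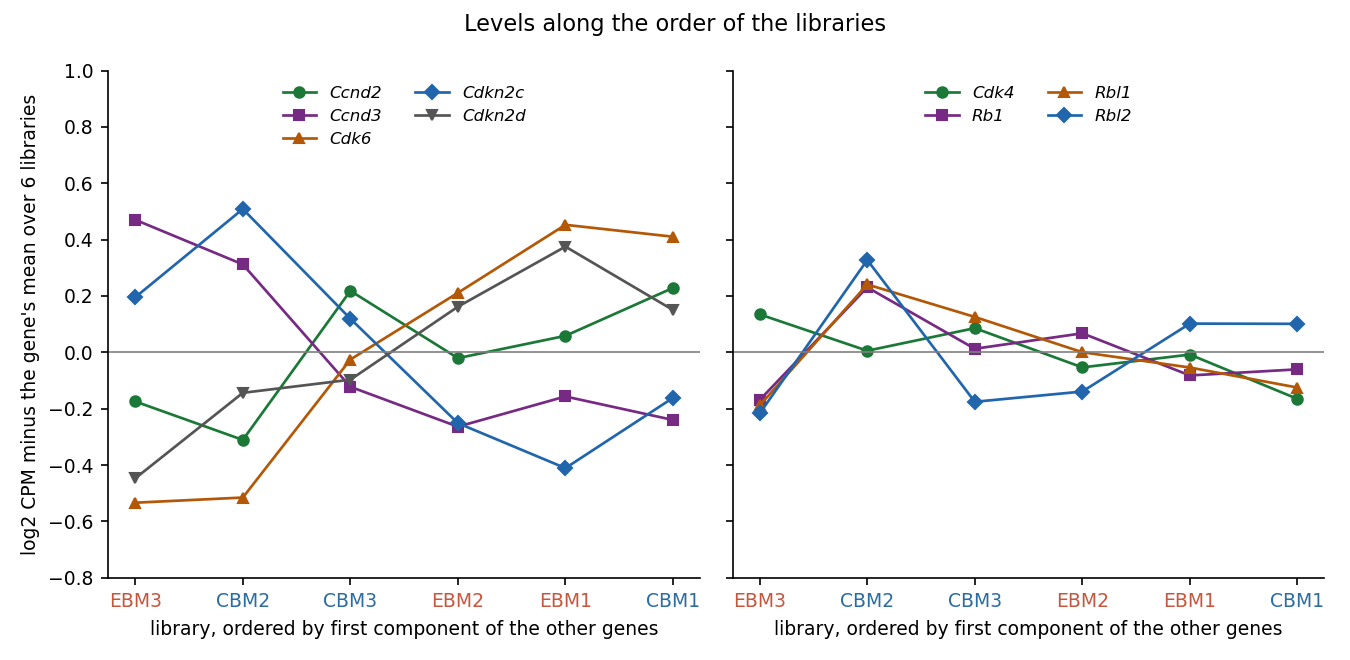
log2 CPM of each tested gene minus its mean over the 6 libraries (vertical axis), with libraries ordered along the first principal component of all other tested genes (CBM names blue, EBM names red). In the left panel Cdk6, Cdkn2d and Ccnd2 are low and Ccnd3 and Cdkn2c high in EBM replicate 3 and CBM replicate 2, and in the right panel Cdk4 and the pocket proteins stay within 0.33 of their means.

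Some blood cell markers were also highest or lowest in these libraries. Cd34, a gene of immature hematopoietic cells, was at 15.4, 1.16 and 4.86 CPM in CBM replicates 1 to 3 and at 16.4, 10.5 and 1.22 CPM in EBM replicates 1 to 3, with the same 2 libraries lowest. Summed with Kit, Myb and Runx1, progenitor genes were at 1277, 864 and 1019 CPM in CBM and at 1127, 1040 and 919 CPM in EBM. Kit and Runx1 were lowest in the same libraries as Cd34. Myb went the other way and was highest in CBM replicate 2 (322 CPM) and EBM replicate 3 (351.6 CPM). The summed erythroid markers were at 2096, 5210 and 2468 CPM in CBM and 2422, 3340 and 3615 CPM in EBM, with CBM replicate 2 and EBM replicate 3 highest, and all 5 genes of that list were detected. Single genes of the list did not all do so, since Hbb-bs was lowest in EBM replicate 3 (807 CPM). Neutrophil markers summed to 6.15, 167 and 2.28 CPM in CBM and to 36.3, 111 and 25.9 CPM in EBM, highest in CBM replicate 2 and EBM replicate 2, unlike these genes. Acp5 was highest in CBM replicate 2 (540.1 CPM) and EBM replicate 3 (565 CPM). Megakaryocyte markers summed to 28.5, 11.0 and 13.7 CPM in CBM and to 24.6, 27.2 and 7.07 CPM in EBM. Among them, Itga2b was lowest in CBM replicate 2 (6.90 CPM) and EBM replicate 3 (3.53 CPM). Gp9 went the other way and was highest there (3.21 and 2.63 CPM), and Pf4 was lowest in CBM replicate 3 (0.496 CPM). The part of these cells in the levels of the cyclins, kinases and inhibitors was not tested. In bulk libraries fewer cells of a type and less RNA per cell cannot be told apart.

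Upstream and downstream of the cyclin D kinases, 58 other genes in 7 lists were counted highly enough to be tested, and none passed an adjusted p under 0.05. An unadjusted p under 0.05 was found for 4 of the 58 (6.9%, beside 7.91% of all genes), and regions that did not overlap for 6 (10.3%, beside 15.1% of all genes), so neither share stood above that of all genes. Cyclin E and Cdk2 take over from cyclin D at the entry into S phase. All 4 genes of this list (Ccne1, Ccne2, Cdk2 and the activating phosphatase Cdc25a) had a negative log2 fold change, with a list median of -0.40 beside 0.00 for all genes. Ccne2 was at 15.9, 24.0 and 20.8 CPM in CBM and at 11.6, 14.7 and 14.7 CPM in EBM, and the regions did not overlap (log2 fold change -0.57, SE 0.19, edgeR unadjusted p = 0.0225, adjusted p = 0.541). Ccne1 was at 13.4, 24.3 and 17.8 CPM in CBM and at 9.11, 9.91 and 13.9 CPM in EBM, where EBM replicate 3 lay above CBM replicate 1 (log2 fold change -0.75, SE 0.27, edgeR unadjusted p = 0.0273, adjusted p = 0.552). It was named after its values were seen.

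Of the 10 E2F and DP genes, 9 had a negative log2 fold change and 1 a positive one, with a median of -0.19. E2f8, a repressor of the family, was at 78.6, 106.3 and 92.9 CPM in CBM and at 66.4, 76.2 and 68.4 CPM in EBM (log2 fold change -0.40, SE 0.13, edgeR unadjusted p = 0.0199, adjusted p = 0.520). Each of its CBM libraries lay above each EBM library. E2f5 had the smallest p of those above 0, with a log2 fold change of 0.42 (SE 0.26, edgeR adjusted p = 0.766). The 24 genes that E2F is known to drive divided into 18 below and 6 above 0, with a median of -0.07, and 0 of them had an unadjusted p under 0.05. Mcm3, of the replicative helicase, had a log2 fold change of 0.09 (SE 0.12, edgeR adjusted p = 0.947). At an unadjusted p under 0.05 there were 3 of the 38 genes of the cyclin E and E2F lists (7.89%), all lower in EBM. The 7.91% of all genes counts both directions. Of all 13352 genes, 521 had such a p and were lower in EBM, and 6626 had a negative log2 fold change. The lists thus leaned to lower values more than all genes did, and this lean was not tested.

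The remaining lists stayed nearer to 0 or varied widely. Of the 5 other Cdk inhibitors, 3 were above and 2 below 0, with a median of 0.33. Cdkn1a (p21) was at 134.4, 41.7 and 76.6 CPM in CBM and at 217.1, 175.1 and 77.7 CPM in EBM (log2 fold change 0.90, SE 0.50, edgeR adjusted p = 0.725), and the regions overlapped. Cdkn1c had a log2 fold change of -0.13 (SE 0.27, edgeR adjusted p = 0.977). Cdkn2a, a further INK4 gene, was at 24.2, 3.001 and 5.71 CPM in CBM and at 26.5, 11.8 and 3.02 CPM in EBM. CBM replicate 2 and EBM replicate 3 were lowest, as for Cdk6. Other genes of the list did not follow this order. Cdkn2b was at 8.55 CPM in EBM replicate 3, above CBM replicate 3 (5.71 CPM), and Cdkn1b was highest in CBM replicate 2 (233.3 CPM). Cdkn2a, Cdkn2b and Cdkn1b were named after their values were seen. MuvB proteins join p130 or p107 in the DREAM complex. Of the 6 genes of MuvB and B-Myb, 2 were above and 4 below 0 (median -0.02), led by Rbbp4 (0.06, SE 0.13, edgeR adjusted p = 0.980) and Lin54 (-0.14, SE 0.17, edgeR adjusted p = 0.933). The Cdk-activating kinase genes had a median of 0.03, with Mnat1 at 0.28 (SE 0.16, edgeR adjusted p = 0.739) and Cdk7 at -0.04 (SE 0.15, edgeR adjusted p = 0.986). Of 6 genes that turn over D cyclins, 5 were above 0. Among them was the kinase Dyrk1a, which marks D cyclins for degradation, at 88.0, 95.4 and 86.1 CPM in CBM and 104.9, 101.0 and 108.3 CPM in EBM (log2 fold change 0.22, SE 0.09, edgeR unadjusted p = 0.0369, adjusted p = 0.596), and each EBM library lay above each CBM library. The ubiquitin ligase gene Fbxo31 had a log2 fold change of -0.21 (SE 0.15, edgeR adjusted p = 0.809).

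Genes known to respond to tissue dissociation were counted beside these results, since only EBM cells were digested. Of 12 such genes 8 were above and 4 below 0, with a median log2 fold change of 0.60, and the heat shock gene Hspa1b was at 9.50, 3.74 and 3.37 CPM in CBM and at 112, 50.3 and 58.6 CPM in EBM (edgeR adjusted p = 0.121). It has a near-identical paralog, Hspa1a, with which reads may be shared. Hspa1a had 2 counts in each CBM library and 53, 50 and 22 counts in EBM (edgeR adjusted p = 0.108). The immediate early phosphatase Dusp1 went the other way, with 1329, 764 and 595 CPM in CBM and 382, 447 and 400 CPM in EBM (edgeR adjusted p = 0.361). The part of the digestion in the levels of the cyclin D pathway was not tested.

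For the leading gene of each role, the genes with the most similar pattern over the 6 libraries were sought among all tested genes, by Pearson's r of log2 CPM and as a description only. Ccnd2 was followed most closely by Ikzf4 and Pacs2 (r = 0.991 for each), Cdk4 by Cox6a1 (0.993) and Ccdc107 (0.987), Cdkn2c by Hmgb3 (0.994) and Cdk8 (0.991), and Rb1 by Ccdc77 (0.995) and Dennd2c (0.993). The 6 points share their libraries and scaling, and genes were ranked over all 13352, so these values carry no test.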

How the data were processed

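RNA-seq was done on 3 CBM and 3 EBM libraries, prepared with a directional kit from rRNA-depleted RNA by the paper's methods and labelled as mRNA in the deposited records. The authors deposited raw counts per gene, with a gene length, for 54532 genes. The submitters' processing notes name HISAT2 2.0.5 and mm10. The counting tool, its strand setting and its annotation are not given in the sources used here. GENCODE M21 (GRCm38) gives identical gene coordinates for 98.3% of shared identifiers and for all 10 genes.

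The deposited counts were filtered with edgeR's filterByExpr (13352 genes kept), scaled by TMM and compared between regions with the quasi-likelihood test of edgeR 4.0.16 in R 4.3.3, without a block, with Benjamini-Hochberg adjustment over all tested genes and a threshold of 0.05. The steps were tested on simulated data. Levels are TMM-scaled CPM, also divided by gene length, with SD over 3 libraries. Log2 CPM for components, SDs and correlations used a prior count of 2. No 2 libraries of a region agreed within sampling noise (chi-square per degree of freedom of at least 13.1). The same replicate numbers occur in both regions, and the correlations of deviations from the region means were 0.68, -0.20 and 0.20. These do not decide whether the libraries are pairs, and the main test did not take them as pairs. Alternatives were DESeq2 1.42.0, limma-voom (limma 3.58.1), other scalings and filters, a replicate block and omitted libraries.

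The genes and lists were chosen with earlier results of these data known. Named were all 10 genes, the genes that overlap them, the gene with the smallest p in each direction of each pathway list (since none was called, and 1 of these is not reported here) and, for the gene with the highest per-length level of each role, the 2 genes most like it.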

Additional observations from a re-analysis of the deposited data

How the results depend on the processing

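None of the 9 tested genes passed an adjusted p under 0.05 in any of 14 alternatives, where adjusted p-values ran from 0.522 to 0.9999. Of the 126 fold changes so obtained, 115 kept their sign and 11 turned. With libraries left out in turn, the log2 fold change ran from -0.26 to -0.02 for Ccnd2, -0.22 to 0.24 for Ccnd3, -0.02 to 0.10 for Cdk4, -0.12 to 0.35 for Cdk6, -0.52 to -0.12 for Cdkn2c, -0.09 to 0.29 for Cdkn2d, -0.19 to -0.03 for Rb1, -0.26 to -0.08 for Rbl1 and -0.30 to -0.05 for Rbl2. Without both CBM replicate 2 and EBM replicate 3, chosen after seeing the data, it was -0.03 for Ccnd3, 0.02 for Rb1 and 0.02 for Rbl2. The cause of these turns was not tested, and none of these values passed the test. Over all genes, where edgeR called 0 (1056 at an unadjusted p under 0.05), DESeq2 called 175, edgeR with no filter on low counts 40 and edgeR without those 2 libraries 13. The cause was not tested. The other 11 alternatives called 0. With the replicate block edgeR called 0 genes, with 1203 at an unadjusted p under 0.05, and the log2 fold change of Cdkn2c was -0.31 (edgeR adjusted p = 0.659). Same-numbered libraries did not all correlate best with each other, which does not decide whether they are pairs. Per-length levels moved by less than 1 SD under other scalings. Depth limits only Ccnd1, with at most 15 counts per library.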
